A study of Capra hircus with 29 samples.

Results

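Oocytes of large follicles were compared between a high and a low fertility population of Ji'ning grey goats. The 10 samples compared, of 29 oocyte samples analysed here, were the 5 labelled HLO (high fertility, large follicles) and the 5 labelled LLO (low fertility, large follicles). They were taken by their labels, and a gene was kept when it had more than 0.5 FPKM in at least 4 of the 10 samples. FPKM is a level of fragments scaled by transcript length and by the mapped reads of the sample. This left 8328 of the 21343 genes in the table.

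The labels give more than 3 kids per birth for the high fertility group and fewer than 2 for the low one, whereas the methods of the study also take litters of 3 kids into the high and of 2 kids into the low group. Each population had 15 goats, and a large follicle was over 7 mm. No treatment, allele, agent or age is given for either group. The methods state for the high fertility group that oocytes of a stage were put together and then divided into samples of 2 to 3 oocytes. The goats behind a sample are not recorded, so the p-values below measure only the spread between these samples, which may be technical. A lower level of a transcript in such a sample and fewer cells that hold it cannot be told apart.

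An oocyte builds up a store of messenger RNA, ribosomes and mitochondria while its follicle grows. In a large antral follicle transcription of the oocyte slows down, and the stored messages carry meiosis, fertilization and the first divisions of the embryo. The oocyte also signals to the granulosa cells around it, mainly through GDF9 and BMP15, and depends on them for metabolites.

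The HLO samples were more alike than the LLO samples. The methods state pooling before division for the high fertility group only, so this cannot be told apart from a difference in pooling. The Spearman correlation across the 8328 genes was between 0.788 and 0.940 for pairs of HLO samples (median 0.878) and between 0.654 and 0.830 for pairs of LLO samples (median 0.737). Genes are not independent replicates, so these values describe the samples only. The SD of log2(FPKM + 1) was larger in LLO for 6703 genes, 80.5% of those tested, with a median over genes of 0.480 in HLO and 0.758 in LLO. LLO 1 was most like HLO 1 (0.945) and LLO 3 was most like HLO 3 (0.909). LLO 2, LLO 4 and LLO 5 had the lowest median correlations with the other samples, at 0.718, 0.753 and 0.715, and results that rest on them are given with and without them. With LLO 1 and LLO 3 alone the correlation of the LLO pair was 0.788, and the SD, then of 2 values, was larger in LLO for 4425 genes (53.1%) with a median of 0.486. An SD of 2 values tends to be below one of 5 values at the same spread. These figures therefore cannot show that the groups were equally spread. The first principal component held 38.8% of the variance and placed HLO 1, HLO 5, LLO 1, LLO 4 and LLO 5 on one side and HLO 2, HLO 3, HLO 4, LLO 2 and LLO 3 on the other. The second held 32.3% and set LLO 2 and LLO 5 apart from the other 8 samples. Neither component put the fertility groups on separate sides.

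**Figure D1:**
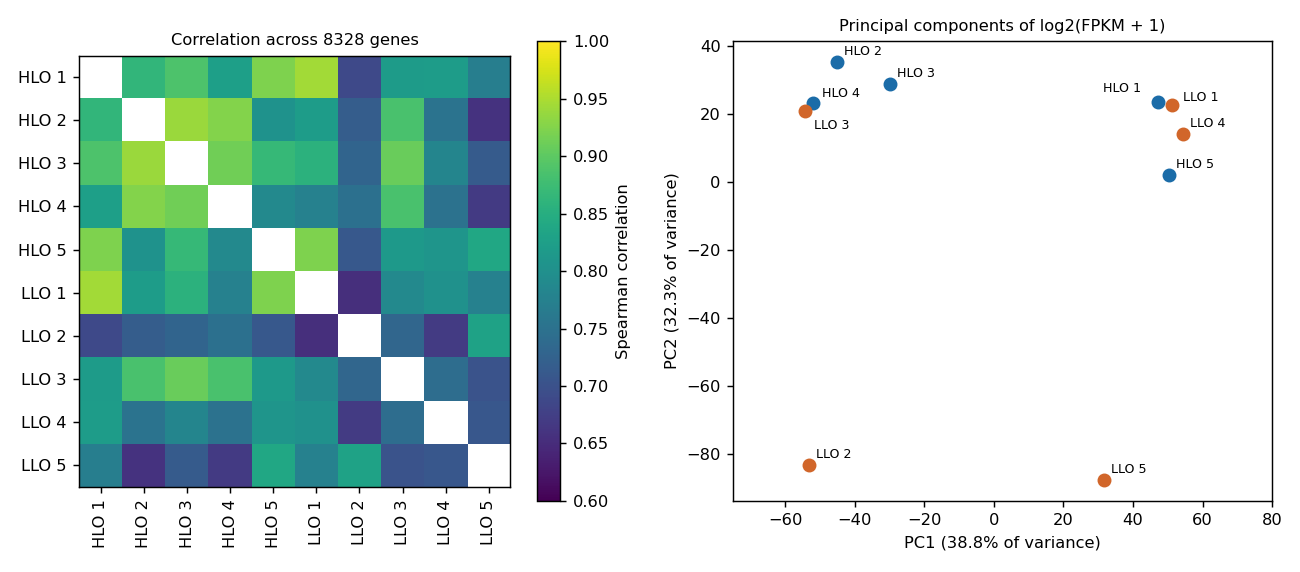
Left, Spearman correlation of FPKM across 8328 genes for each pair of the 10 samples (colour scale 0.6 to 1, diagonal blank). Right, the same samples on the first 2 principal components of log2(FPKM + 1), HLO in blue and LLO in orange. LLO 2 and LLO 5 lie far below the rest, and LLO 1 and LLO 3 lie among the HLO samples.

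The total FPKM of a sample lay between 347806 and 448945, and read depth is unknown because the table holds no counts. The number of genes over 0.5 FPKM was 8415, 7306, 7376, 7251 and 8120 in HLO 1 to 5 and 8153, 6646, 6806, 8689 and 7699 in LLO 1 to 5. The means differed by 95 genes (exact permutation test, two-sided, p = 0.825), and the groups overlapped fully. The difference was -12.8 genes at a limit of 1 FPKM (exact p = 0.976) and 427 at 0.1 FPKM (exact p = 0.421). Its sign was not stable to leaving out a sample, with -143 without LLO 2 and 368 without LLO 4.

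Transcripts of the oocyte were found in both groups. ZP3, a glycoprotein of the zona pellucida, had 1639.7, 533, 508, 679 and 3179 FPKM in HLO 1 to 5 and 1369, 57.5, 404, 2945 and 265 in LLO 1 to 5. GDF9, a growth factor secreted by the oocyte, had 368, 102, 131, 95.8 and 494 FPKM in HLO and 434, 33.1, 90.5, 504 and 209.8 in LLO. For both genes HLO 1, HLO 5, LLO 1 and LLO 4 were high, and the groups overlapped. Of 16 oocyte markers and copies 13 were tested and none passed the limits used below, which 2.29% of all genes passed. NOBOX and NLRP5 were too low to be tested. The defining genes of granulosa cells were at or near 0: FSHR, LHCGR, AMH, AMHR2, HSD17B1 and CYP19A1 did not pass the filter, and 4 of 18 markers did (STAR, SERPINE2, VCAN and HAS2). Over all 18 markers the summed level was 27.8 to 51.4 FPKM in HLO and 23.0 to 32.5 in LLO. The means of the sum were 39.7 and 28.0 FPKM, of which STAR made up 23.5 and 12.1. Of the markers of theca and stroma 3 of 9 were tested (ACTA2 1.45 to 24.3 FPKM in HLO and 1.996 to 27.5 in LLO, DCN 3.73 to 11.3 and 3.76 to 16.7, COL1A2 0.692 to 1.89 and 0.235 to 1.59), of endothelium 2 of 7 (TEK 1.23 to 2.25 and 0.972 to 2.15, KDR 0.36 to 1.46 and 0.0828 to 0.435) and of leukocytes 1 of 8 (LCP1 1.64 to 3.51 and 1.52 to 4.1). KDR was 0.47 higher in HLO on the log2 scale, within the fold limit (unadjusted p = 0.03), and its groups overlapped. The leukocyte genes CD14, TYROBP and CD74 were listed at 0 in all 10 samples.

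The question of the comparison is which transcripts differ between the fertility groups in oocytes of the largest follicles. No gene differed after adjustment. With limma's moderated test on log2(FPKM + 1) and Benjamini-Hochberg adjustment, 0 of 8328 genes (0%) stayed under an adjusted p of 0.05, while 345 (4.14%) were under 0.05 before adjustment. With a log2 fold change beyond 1 as well, 148 genes (1.78%) were higher in HLO and 43 (0.516%) were higher in LLO, which made 2.29% in either direction. These limits are meant below wherever a gene is said to pass the limits. The genes below are therefore described by their values, as no single one was established. Of the genes past the limits 77.5% were higher in HLO. With array weights this share was 35.2%, from 307 genes higher in HLO and 565 in LLO, and the median of all genes moved from -0.09 to -0.26. The counts were 42 and 14 without LLO 2, LLO 4 and LLO 5, a fit of 5 HLO samples against LLO 1 and LLO 3 alone. With so few LLO samples that fit has less power, and a call can be lost while the fold holds. A call lost there does not by itself show that the difference rested on the samples left out. With 1 sample left out, the number higher in HLO lay between 73 (without LLO 5) and 353 (without LLO 1). The number higher in LLO lay between 11 (without HLO 4) and 256 (without LLO 3). The median log2 fold change of all genes was -0.09, and 42.4% of genes had a value above 0.

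**Figure D2:**
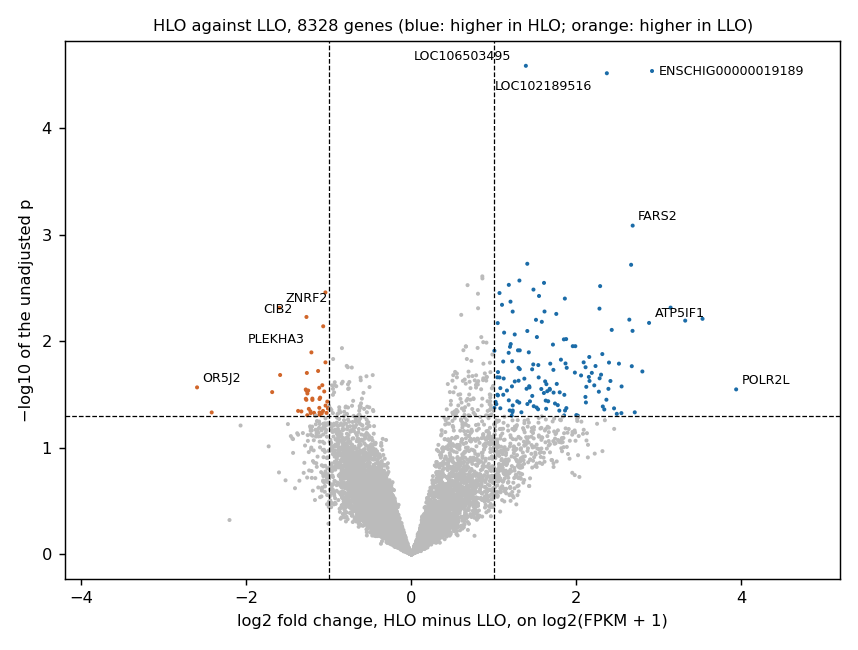
Each point is 1 of 8328 genes. The x axis is the log2 fold change of HLO against LLO on log2(FPKM + 1), the y axis the negative log10 of limma's unadjusted p, and the dashed lines are the limits of 0.05 and a log2 fold change of 1. The 148 genes higher in HLO are blue, the 43 higher in LLO orange, and 3 genes stand above the rest.

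The 3 genes with the smallest p shared limma's adjusted p of 0.0851, and every other gene named as passing the limits had 0.828. LOC106503495 (ENSCHIG00000012270), whose terms in the table place it in the nucleosome, had 1.18, 1.99, 1.43, 2.13 and 2.69 FPKM in HLO and 0.497, 0, 0, 0 and 0 in LLO. All HLO samples were above all LLO samples, of which 4 were listed at 0. The log2 fold change was 1.39 (standard error 0.223, unadjusted p = 2.61e-05). ENSCHIG00000019189, a gene with no symbol in the table, had 6.41, 9.08, 16.4, 10.4 and 6.75 FPKM in HLO and 0, 0, 3.7, 0 and 0 in LLO. Here LLO 3 was the only low fertility sample with any level, and the log2 fold change was 2.92 (standard error 0.474, unadjusted p = 2.92e-05). LOC102189516 (ENSCHIG00000015892) had 5.95, 10.9, 12.3, 8.71 and 5.85 FPKM in HLO and 2.46, 0.517, 0.105, 1.13 and 0.608 in LLO. The highest LLO sample, LLO 1, was well below the lowest HLO sample, and the log2 fold change was 2.37 (standard error 0.386, unadjusted p = 3.06e-05). Each of the 3 genes passed the limits with any 1 sample left out and without LLO 2, LLO 4 and LLO 5, where the log2 fold changes were 1.21, 2.25 and 2.26.

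All HLO samples lay above all LLO samples in 23 genes (0.276%), and all LLO samples above all HLO samples in 13 (0.156%). With a log2 fold change beyond 1 as well there were 13 such genes (0.156%), and all 13 are named here. MRPS25, a protein of the small subunit of the mitochondrial ribosome, had 2.38, 2.22, 1.53, 7.67 and 1.09 FPKM in HLO and 0.378, 0, 0.52, 0.823 and 0 in LLO. PSMG4, a chaperone that assembles the proteasome, had 10.3, 9.6, 6.69, 9.21 and 6.89 FPKM in HLO and 2.39, 3.37, 2.3, 5.2 and 2.81 in LLO. Both passed the limits in every fit with 1 sample left out and without LLO 2, LLO 4 and LLO 5 (log2 fold changes 1.26 and 1.49, against 1.41 and 1.202 with all samples).

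KLHL12, an adaptor that brings substrates to the cullin 3 ubiquitin ligase, had 3.31, 3.83, 2.94, 5.57 and 2.93 FPKM in HLO and 1.51, 0.913, 2.83, 0.608 and 0.913 in LLO. PLEKHG2 had 3.94, 3.69, 4.55, 10.1 and 3.82 FPKM in HLO and 2.31, 1.07, 2.75, 0.744 and 1.18 in LLO. HLO 4 was the highest and LLO 3 the highest of LLO in both genes, and in KLHL12 LLO 3 was close to HLO 5. FERMT3, an activator of integrins, had 7.12, 5.5, 1.75, 3.74 and 1.7 FPKM in HLO and 1.53, 0.597, 1.01, 1.19 and 1.13 in LLO, so that HLO 3 and HLO 5 were only just above LLO 1. PLA2G10, a secreted phospholipase, had 0.533, 2.9, 0.496, 2.83 and 0.64 FPKM in HLO and 0, 0.384, 0, 0 and 0 in LLO. The log2 fold changes of these 4 genes were 1.05, 1.23, 1.12 and 1.07. The call was lost for KLHL12 without HLO 4, LLO 2, LLO 4 or LLO 5 (range 0.92 to 1.24 with a sample left out), for PLEKHG2 without HLO 4 (0.997 to 1.37), for FERMT3 without HLO 1 or HLO 2 (0.91 to 1.31) and for PLA2G10 without HLO 1, HLO 2, HLO 4 or HLO 5 (1.05 to 1.21). With LLO 2, LLO 4 and LLO 5 left out together the values of KLHL12, PLEKHG2 and PLA2G10 were 0.58, 0.74 and 1.16, of which PLA2G10 alone passed the limits, and FERMT3 did not pass (unadjusted p = 0.0803).

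Of the 13 genes 4 were higher in LLO. PLEKHA3, which binds a phosphoinositide of the Golgi, had 2.93, 1.72, 1.96, 1.02 and 1.89 FPKM in HLO and 2.94, 5.68, 6.83, 4.14 and 6.05 in LLO. HLO 1 and LLO 1 were almost equal in this gene, and the other samples were well apart (log2 fold change -1.07, lost without HLO 4 or LLO 3, range -1.22 to -0.95). CIB2, a calcium-binding partner of integrins, had 4.98, 3.39, 5.71, 6.81 and 4.53 FPKM in HLO and 7.87, 21.9, 11.9, 14.6 and 14.2 in LLO. Its log2 fold change was -1.27 (standard error 0.39, unadjusted p = 0.00592), and it passed the limits in each fit with 1 sample left out. MOSPD1 had 18.4 to 22.1 FPKM over the HLO samples and 22.5, 146, 37.1, 24.1 and 49.8 in LLO 1 to 5, with an unadjusted p of 0.0642. C12orf45 had 7.98 to 16.3 FPKM over the HLO samples and 16.4 to 72 over the LLO samples, with an unadjusted p of 0.0529. Both had no overlap but did not pass the limit on p, and MOSPD1 is 1 of 2 genes with its symbol.

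**Figure D3:**
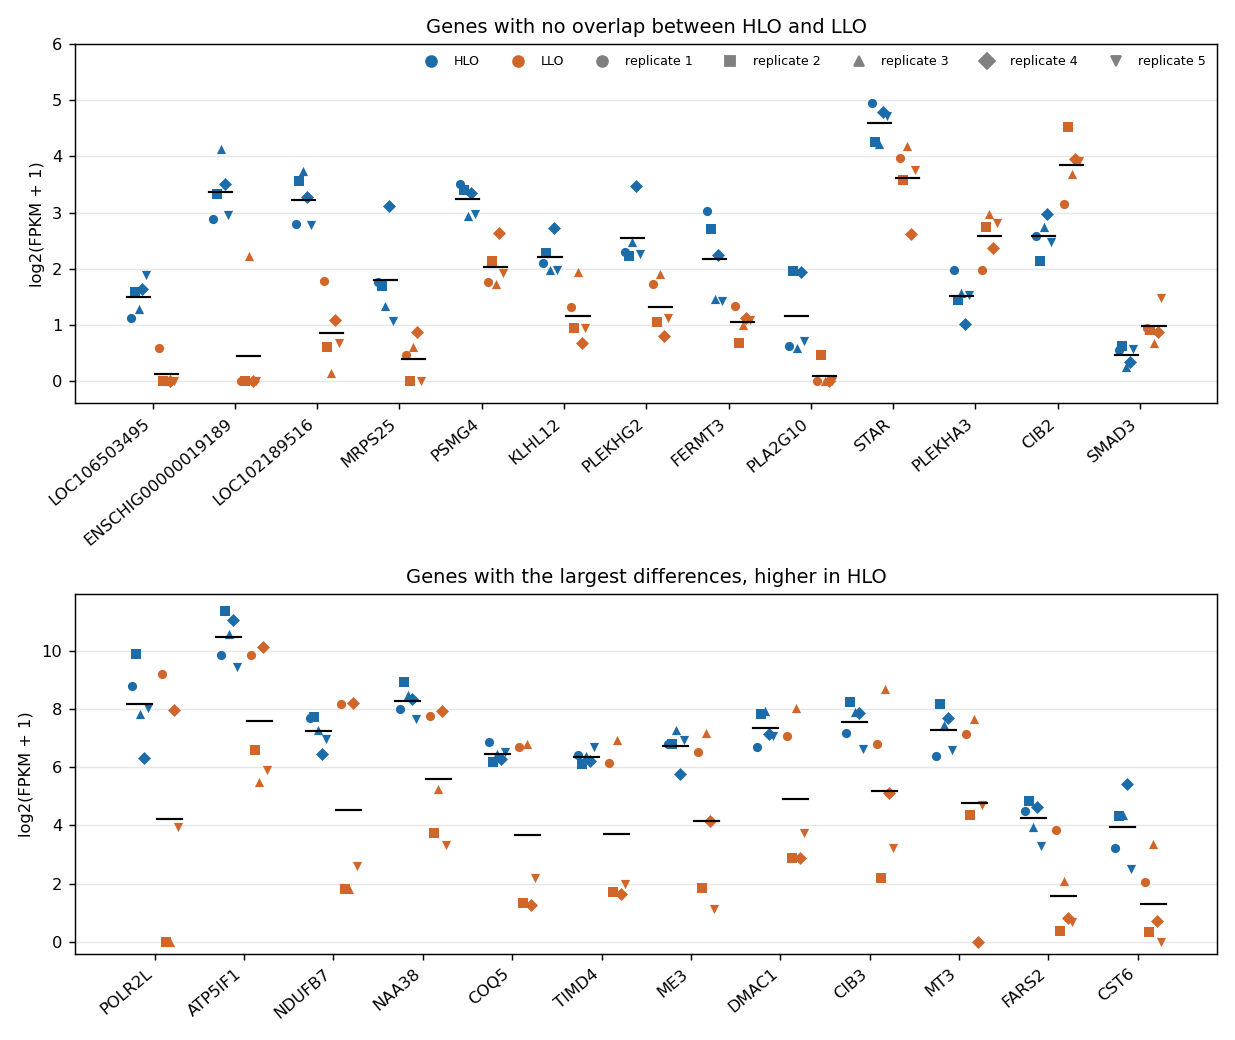
Level as log2(FPKM + 1) of each gene in each sample, HLO in blue and LLO in orange, with a marker shape for each replicate number and a black line at the group mean. Top, genes whose groups did not overlap, among them STAR and SMAD3, which were within the fold limit, while MOSPD1 and C12orf45 are not drawn. Bottom, genes of large difference, in which 2 to 4 LLO samples lie far below the HLO samples and LLO 1 is in the range of HLO or close to it.

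The genes with the largest differences were higher in HLO, and in most of them some LLO samples were at the level of HLO and others far below it. ATP5IF1, the inhibitor of ATP hydrolysis by the ATP synthase, had 913, 2656, 1537, 2148 and 695 FPKM in HLO and 914, 94.2, 44, 1107 and 58.4 in LLO. LLO 2, LLO 3 and LLO 5 were low, and LLO 1 and LLO 4 were at the level of HLO (log2 fold change 2.88, standard error 0.901, unadjusted p = 0.00674). NDUFB7, a subunit of complex I, had 205, 212, 155, 86.3 and 125 FPKM in HLO and 284, 2.51, 2.53, 297 and 5.05 in LLO. The low samples were again LLO 2, LLO 3 and LLO 5, and the call (log2 fold change 2.71) was lost without HLO 1, HLO 2, HLO 3, HLO 5, LLO 2, LLO 3 or LLO 5, with a range of 2.03 to 3.63.

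The low samples were others in COQ5, ME3 and DMAC1. COQ5, a methyltransferase of coenzyme Q synthesis, had 114, 71.3, 86.9, 76.6 and 91 FPKM in HLO and 103, 1.53, 109.9, 1.4 and 3.55 in LLO. ME3, a mitochondrial malic enzyme, had 109.6, 109, 155, 53.4 and 120.2 FPKM in HLO and 89.96, 2.63, 144, 16.6 and 1.18 in LLO. DMAC1, an assembly factor of complex I, had 102, 226, 243, 138 and 134 FPKM in HLO and 133, 6.42, 258, 6.34 and 12.3 in LLO. In the 3 genes LLO 2, LLO 4 and LLO 5 were low, and LLO 1 and LLO 3 were within the range of HLO or above it. TIMD4, a receptor for phosphatidylserine, had 83.8, 68.1, 82.9, 73.8 and 102 FPKM in HLO and 70.2, 2.3, 122, 2.14 and 2.98 in LLO, and the same 3 samples were low. CIB3, a calcium-binding protein, had 109, 3.56, 408, 33.4 and 8.34 FPKM in LLO against 96.4 to 298 over HLO, and MT3, a metallothionein that binds zinc and copper, had 139, 19.5, 199, 0 and 25.2 against 81.5 to 290.0. The log2 fold changes of COQ5, ME3, DMAC1, TIMD4, CIB3 and MT3 were 2.80, 2.55, 2.41, 2.67, 2.36 and 2.49. Without LLO 2, LLO 4 and LLO 5 they were -0.29, -0.13, -0.21, -0.19, -0.17 and -0.13. With 1 sample left out the call was lost for COQ5 without LLO 2 or LLO 4, for ME3 without HLO 3, LLO 2 or LLO 5, for DMAC1 without LLO 2, LLO 4 or LLO 5, for TIMD4 without LLO 4, for CIB3 without HLO 2, HLO 3, HLO 4, LLO 2, LLO 4 or LLO 5 and for MT3 without HLO 2, HLO 3, HLO 4, HLO 5, LLO 2, LLO 4 or LLO 5, and the values stayed above 0, from 1.30 to 3.21 in MT3.

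FARS2, the mitochondrial phenylalanyl-tRNA synthetase, had 21.6, 27.6, 14.4, 24 and 8.82 FPKM in HLO and 13.3, 0.304, 3.24, 0.763 and 0.615 in LLO. Only LLO 1 reached the range of HLO, and the other 4 LLO samples were below 4 FPKM (log2 fold change 2.68, standard error 0.626, unadjusted p = 0.000824). CST6, an inhibitor of cysteine proteases, had 8.23, 18.8, 19.5, 41.7 and 4.7 FPKM in HLO and 3.17, 0.265, 9.36, 0.635 and 0 in LLO, and its log2 fold change was 2.66. NAA38, a subunit of the NatC N-terminal acetyltransferase, had 253, 485, 358, 325 and 199.6 FPKM in HLO and 215, 12.3, 37.1, 244 and 9.05 in LLO, with LLO 2, LLO 3 and LLO 5 low (log2 fold change 2.68). ATP5IF1, FARS2, CST6 and NAA38 passed the limits with any 1 sample left out. Without LLO 2, LLO 4 and LLO 5, ATP5IF1 (2.80) and NAA38 (1.78) still did, and FARS2 (1.29, unadjusted p = 0.0687) and CST6 (1.24, unadjusted p = 0.149) did not.

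POLR2L and SHFM1 were also in this set. POLR2L, a small subunit shared by the RNA polymerases, had 438, 934, 223, 77.9 and 259 FPKM in HLO and 589, 0, 0, 249 and 14.2 in LLO. Listed at 0 in LLO 2 and LLO 3, it had the largest log2 fold change of all genes, 3.94, with a standard error of 1.6 (lost without HLO 1, HLO 2, LLO 2 or LLO 3, range 2.88 to 5.18). SHFM1, a subunit of the proteasome lid, had 5.91, 24.6, 18.2, 51 and 5.87 FPKM in HLO and 0, 0, 30.3, 8.83 and 0 in LLO (log2 fold change 2.39, lost without HLO 2, HLO 4, LLO 1, LLO 2 or LLO 5, range 1.97 to 3.22). POLR2L and SHFM1 were 3.55 and 1.56 without LLO 2, LLO 4 and LLO 5 (unadjusted p = 0.121 and 0.263), and NDUFB7 was 2.24 (unadjusted p = 0.141).

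Over all 148 genes higher in HLO the low fertility samples did not take equal part. LLO 2 was below every HLO sample in 140 of them and LLO 5 in 138, against 105 for LLO 4, 76 for LLO 3 and 40 for LLO 1. Over all 8328 genes the shares were 38.5% for LLO 2, 26.3% for LLO 5, 13.4% for LLO 4, 28.6% for LLO 3 and 12.7% for LLO 1. The genes were chosen by the same values, so these counts describe them and are no test.

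The genes named as higher in LLO had mostly smaller differences. SRPK1 is a kinase of SR splicing proteins, PNN and CDC40 are splicing factors, CECR2 and SMARCAD1 remodel chromatin, and ABRAXAS1 and HELQ act in DNA repair. SRPK1 had 32.7, 10.9, 14.7, 11.6 and 52.8 FPKM in HLO and 40.9, 51.4, 22.2, 55.2 and 150.0 in LLO. PNN had 9.54, 5.99, 5.59, 10.4 and 17.8 FPKM in HLO and 9.13, 42.1, 13.3, 23.9 and 53.9 in LLO. LLO 5 was the highest sample in both genes, and HLO 5 was above LLO 1 in both. CECR2 had 6.03, 3.5, 2.83, 5.45 and 5.03 FPKM in HLO and 3.86, 26.7, 4.995, 25.9 and 17.2 in LLO, with LLO 2, LLO 4 and LLO 5 high. The log2 fold changes of SRPK1, PNN, CDC40, CECR2, SMARCAD1, ABRAXAS1 and HELQ were -1.33, -1.27, -1.26, -1.28, -1.27, -1.26 and -1.22. Each lost its call without LLO 5 and with at least 4 of the other 9 samples left out in turn, with ranges of -1.67 to -0.96, -1.59 to -0.98, -1.60 to -0.85, -1.64 to -1.01, -1.58 to -0.97, -1.71 to -0.98 and -1.49 to -0.95. Without LLO 2, LLO 4 and LLO 5 they were -0.56, -0.26, -0.27, 0.01, -0.38, -0.24 and -0.44, and 0 of these 7 passed the limits.

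ZNRF2, a ubiquitin ligase, had 6.59, 1.68, 3.22, 5.73 and 6.17 FPKM in HLO and 13.5, 15.1, 6.42, 29.6 and 18.8 in LLO. LLO 4, LLO 5, LLO 2 and LLO 1 were above all HLO samples, and LLO 3 was within them (log2 fold change -1.60, standard error 0.475, unadjusted p = 0.00486). Together with CIB2 it was 1 of 2 genes of this set that passed the limits with any 1 sample left out, and without LLO 2, LLO 4 and LLO 5 it was -0.97 (unadjusted p = 0.101). FAM98B, part of the tRNA ligase complex, had 32.2, 8.93, 18.6, 6.34 and 28.7 FPKM in HLO and 51.8, 29.7, 20.5, 89.1 and 109 in LLO (log2 fold change -1.59, lost without HLO 2, HLO 4, LLO 4 or LLO 5, range -1.90 to -1.29). DIRAS2, a small GTPase, had 25.6, 30.7, 35.9, 31 and 73.6 FPKM in HLO and 39.4, 161, 68.3, 92.2 and 147 in LLO (-1.28, lost without HLO 1, HLO 2, HLO 3, HLO 4, LLO 2 or LLO 5, range -1.57 to -1.07). HLO 5 was above LLO 1 and LLO 3 in this gene. CLUAP1, of intraflagellar transport, had a log2 fold change of -1.37 (lost without HLO 2, HLO 3, HLO 4, LLO 4 or LLO 5, range -1.72 to -1.02). DYNLT1, a light chain of dynein, had 0, 0.329, 1.26, 1.04 and 1.11 FPKM in HLO and 3.33, 1.38, 1.23, 13.5 and 2.1 in LLO (-1.27, lost without HLO 1 or LLO 4, range -1.48 to -0.80). The largest difference of the set, -2.60 for the olfactory receptor OR5J2, rested on 69.8, 1.37, 0.666, 0.433 and 65 FPKM in LLO 1 to 5 against 0 to 1.53 over HLO, so only LLO 1 and LLO 5 were high, and the call was lost without either of them (range -3.20 to -1.79). Leaving out LLO 2, LLO 4 and LLO 5 together gave -0.99 for FAM98B, -0.50 for DIRAS2, -0.35 for CLUAP1, -0.90 for DYNLT1 and -0.84 for CIB2, none of them past the limits, and OR5J2 was not tested there.

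Of the gene lists that were examined, those of the respiratory chain and of ribosomes had the highest medians. The nuclear genes of the respiratory chain and the ATP synthase make the subunits that are imported into the mitochondrion. Of 100 such genes and gene copies 73 were tested, and 19 were listed at 0 in all 10 samples. Past the limits, 8 were higher in HLO and 0 in LLO, against 1.78% and 0.516% of all genes, and 58 of the 73 had a log2 fold change above 0. The median was 0.83, against -0.09 for all genes. The 8 were ATP5IF1, NDUFB7, UQCRQ, NDUFS4, NDUFC1, NDUFA3, NDUFB11 and COX7B2. UQCRQ, a subunit of complex III, had 1147, 1970.2, 1210.2, 1111 and 831 FPKM in HLO and 1177, 99.4, 48, 1519 and 105 in LLO, with LLO 2, LLO 3 and LLO 5 low. NDUFS4, an accessory subunit of complex I, had 781, 1001, 917, 758 and 507 FPKM in HLO and 397, 119.9, 975, 219.5 and 127 in LLO, and here LLO 2, LLO 4 and LLO 5 were low. UQCRQ had a log2 fold change of 2.28 (lost without LLO 2, LLO 3 or LLO 5, range 1.70 to 2.94) and NDUFS4 one of 1.54 (lost without LLO 2 or LLO 5, range 1.26 to 2.01). ATP5J, another subunit of the ATP synthase, went against the list with 1494, 3728, 2666, 3226 and 1527 FPKM in HLO and 1648, 7639.7, 3970.4, 1018 and 2728 in LLO, where LLO 2 was the highest of all 10 samples. It is the most abundant of 3 genes with this symbol, and did not pass the limits. UQCRQ was 2.32 (unadjusted p = 0.0504) and NDUFS4 0.31 (0.508) without LLO 2, LLO 4 and LLO 5. The list had 1 call without LLO 5, 2 without LLO 2, 4 without HLO 2 or HLO 3, 15 without LLO 4, 16 without LLO 1 and 17 without LLO 3. It had 24 with array weights, 0 with the exact Wilcoxon test and 1 without LLO 2, LLO 4 and LLO 5 together. The calls over all genes moved as well. Those higher in HLO were 73 without LLO 5, 74 without LLO 2, 97 without HLO 2 and 102 without HLO 3. They were 269 without LLO 4, 353 without LLO 1 and 324 without LLO 3, of 8021 to 8256 genes tested. They were 307 with array weights, 50 with the exact Wilcoxon test and 42 of 7508 without LLO 2, LLO 4 and LLO 5 together. In that last fit the median of the list was -0.06 and 31 of 71 members were above 0, against a median of 0.02 for all genes in that fit.

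The proteins of the cytosolic ribosome are the largest of these lists, with 266 genes and gene copies in the table, of which 133 were tested and 87 were listed at 0 in all 10 samples. Past the limits, 7 were higher in HLO and 0 in LLO, against 1.78% and 0.516% of all genes. Of the 133, 97 had a log2 fold change above 0, against 42.4% of all genes, with a median of 0.53. RPS15 (ENSCHIG00000023211) had 1548, 3015, 2307, 2258 and 1058 FPKM in HLO and 1445, 61.3, 30.4, 1485 and 29 in LLO (log2 fold change 3.53). RPL28 had 175, 303, 223, 238 and 192 FPKM in HLO and 184, 38.3, 17.9, 168 and 26.2 in LLO (log2 fold change 1.96). In both genes LLO 2, LLO 3 and LLO 5 were low, LLO 1 and LLO 4 were near HLO, and the limits were passed with any 1 sample left out. RPL38 had 31.3, 123, 52.5, 49.3 and 27.9 FPKM in HLO and 16.3, 8.36, 57.2, 0 and 7.15 in LLO (2.40), with LLO 3 in the range of HLO and LLO 4 listed at 0. It was 0.65 (unadjusted p = 0.375) without LLO 2, LLO 4 and LLO 5, where RPS15 and RPL28 were 3.17 and 1.92. RPS15, RPL28 and RPL38 each share their symbol with further genes of the table, among which reads may have been divided, so their levels are uncertain. The list had 3 calls without LLO 5, 12 without LLO 4, 18 without LLO 1, 27 without LLO 3 and 5 to 8 with another sample left out. Over all genes, the calls higher in HLO were 73, 269, 353 and 324 in the same fits. With another sample left out they were 74 to 171. The list had 5 calls, a median of -0.10 and 43 of 128 members above 0 without LLO 2, LLO 4 and LLO 5. In that fit 42 of all 7508 genes were called higher in HLO.

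The mitochondrial ribosome makes the few proteins that mitochondrial DNA encodes. Of 90 such genes and copies 71 were tested, 4 passed the limits higher in HLO and 0 in LLO, against 1.78% and 0.516% of all genes. Of the 71, 54 had a log2 fold change above 0, against 42.4% of all genes, with a median of 0.60. The list had 11 calls without LLO 1 or LLO 4, 8 without LLO 3 and 3 or 4 with another sample left out. Over all genes, the calls higher in HLO were 353 without LLO 1, 269 without LLO 4 and 324 without LLO 3. With another sample left out they were 73 to 171. Beside MRPS25 the 4 were MRPL40, MRPL55 and MRPL23. MRPL55 had 56.6, 41.4, 41.8, 28.9 and 38.2 FPKM in HLO and 54.4, 1.27, 13.9, 13 and 1.66 in LLO (log2 fold change 2.16), so LLO 1 was in the range of HLO and the other 4 LLO samples were below it. MRPL40 (ENSCHIG00000000131), 1 of 2 genes with its symbol, had 6.28, 4.69, 3.26, 3.91 and 2.03 FPKM in HLO and 2.91, 0, 0, 1.38 and 0.665 in LLO (1.48). MRPL23 had 30.5, 37.4, 6.5, 17.6 and 3.93 FPKM in HLO and 30.4, 1.04, 0.108, 0.138 and 2.56 in LLO (2.30, lost without HLO 2, LLO 3 or LLO 4, range 1.93 to 3.13). Without LLO 2, LLO 4 and LLO 5, 2 of the calls remained, MRPS25 and MRPL40, MRPL55 (0.53) and MRPL23 (1.37) did not pass, and the median of the list was -0.03.

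The 13 genes encoded by mitochondrial DNA were all tested and none passed the limits, against 2.29% of all genes. Each had a log2 fold change above 0 (median 0.94). The median rested on single samples, with 0.23 and 9 of 13 above 0 without HLO 1, and 0.30 and 8 of 13 without LLO 4. With LLO 2 or HLO 5 left out 1 gene passed the limits, where 74 and 171 of all genes passed higher in HLO. Their summed level was 1684, 359, 447, 171 and 166 FPKM in HLO 1 to 5 and 346, 491, 211, 11.2 and 521 in LLO 1 to 5. HLO 1 was thus far above all samples, LLO 4 was close to nothing, and the other 8 samples overlapped. COX3, a subunit of complex IV, had 429.7, 129.9, 109, 46.3 and 38.5 FPKM in HLO and 148, 184, 72.5, 2.95 and 165 in LLO. ND2, of complex I, had 123, 65.7, 151, 28.3 and 61.3 FPKM in HLO and 69.8, 96.5, 54, 0.967 and 117 in LLO. The order of samples was not that of the nuclear genes of the respiratory chain, since LLO 2 and LLO 5 were high here.

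**Figure D4:**
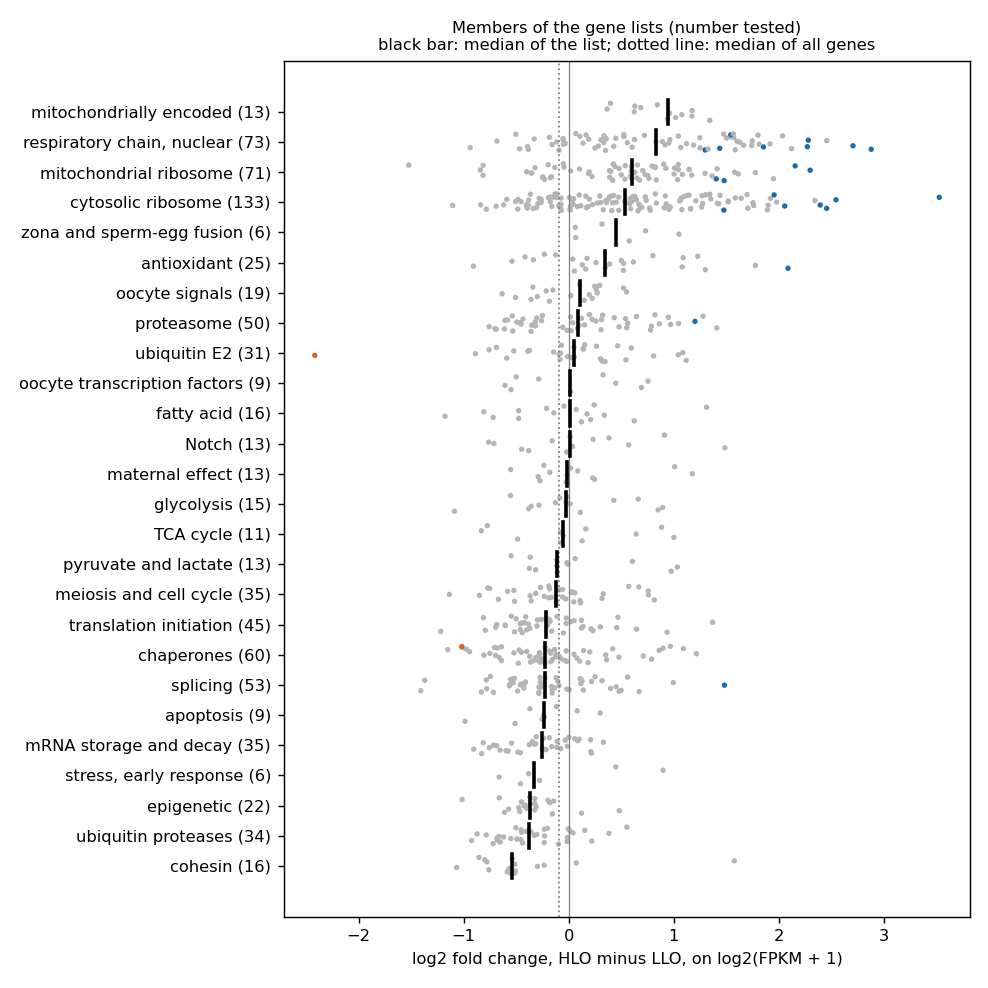
Log2 fold change of HLO against LLO for the tested members of 26 gene lists, 1 point per gene or gene copy, with the number tested in parentheses. Members past the limits are blue (higher in HLO) or orange (higher in LLO), the black bar is the median of the list, and the dotted line is the median of all genes (-0.09).

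In the lists of oxidation defence and protein turnover the share past the limits was near the 2.29% of all genes. Of 25 antioxidant genes tested GLRX2, a mitochondrial glutaredoxin, passed the limits, with 62.9, 97.8, 54.3, 53.6 and 23.4 FPKM in HLO and 62.6, 2.69, 7.03, 32.3 and 4.33 in LLO (log2 fold change 2.09). LLO 2, LLO 3 and LLO 5 were low in it, and it was 1.26 (unadjusted p = 0.163) without LLO 2, LLO 4 and LLO 5. The median of the antioxidant list was 0.35. Of 50 proteasome genes in the list, which does not hold SHFM1, PSMG4 passed, with a median of 0.09 for the list. Of 31 ubiquitin-conjugating enzymes UBE2W passed, higher in LLO, with 34.4, 0, 0, 0 and 0 FPKM in HLO and 45.5, 15.3, 11.3, 0 and 15.7 in LLO. HLO 1 and LLO 1 were the highest samples of UBE2W, 5 of the 10 were listed at 0, and its call was lost with 8 of the 10 samples left out in turn (range -3.45 to -1.90), and it shares its symbol with another gene. Of 34 ubiquitin-specific proteases 0 passed, and 6 had a log2 fold change above 0, with a median of -0.38. USP8 had 35.8, 16.4, 19.1, 18.1 and 44.3 FPKM in HLO and 33.5, 63.1, 31.4, 29 and 127 in LLO, with LLO 5 and LLO 2 highest. The median of this list was 0.06 without LLO 2, LLO 4 and LLO 5.

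In the lists of oocyte signals and of zona and sperm-egg fusion the share past the limits, 0%, was near the 2.29% of all genes. Of 19 genes of oocyte signalling 0 passed the limits, with a median of 0.10. Of 6 genes of zona and fusion 0 passed, all 6 had a log2 fold change above 0, and the median was 0.45. BMP15, the partner of GDF9, had 182, 104, 99.3, 125 and 154 FPKM in HLO and 96.9, 169.8, 67.6, 167 and 180.4 in LLO. ZP2 had 270.4, 152, 155, 153 and 185 FPKM in HLO and 228, 105, 114, 315 and 168 in LLO, and ZP4 134 to 616 over HLO and 56.4 to 752 over LLO. The range of LLO was wider in all 4 of GDF9, BMP15, ZP2 and ZP4 at the low end. ID3, a target of BMP signals, had 16.9 to 49.1 FPKM over HLO and 6.91 to 53.6 over LLO. SMAD3, which carries activin and TGF-beta signals, was low in all samples, with 0.465, 0.544, 0.182, 0.272 and 0.49 FPKM in HLO and 0.915, 0.877, 0.607, 0.82 and 1.79 in LLO. It was chosen after its values were seen because the groups did not overlap, and its log2 fold change of -0.51 (unadjusted p = 0.0269) was within the fold limit. Of 13 genes of the Notch pathway 0 passed, against 2.29% of all genes. HES1, a Notch target, had 35, 65.3, 54.8, 70.9 and 36.2 FPKM in HLO and 18.5, 6.11, 48.3, 73 and 3.07 in LLO, with LLO 2 and LLO 5 low and LLO 4 highest of all (log2 fold change 1.49, unadjusted p = 0.064).

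STAR, which brings cholesterol into mitochondria for steroid synthesis and is a marker of steroid-making cells, also had no overlap. It had 30.01, 18, 17.6, 26.5 and 25.4 FPKM in HLO and 14.7, 11, 17.3, 5.11 and 12.5 in LLO, so that HLO 3 and LLO 3 were next to each other. The log2 fold change was 0.96 (standard error 0.431, unadjusted p = 0.0429), just within the fold limit. The other tested granulosa markers were SERPINE2 (5.4 to 16.5 FPKM over HLO and 4.1 to 11.3 over LLO), VCAN (1.91 to 5.25 and 2.31 to 8.24) and HAS2 (0.678 to 2.09 and 0.892 to 4.34), none of which passed the limits. CYP19A1 and FSHR, which define granulosa cells of large follicles, were at or near 0, while SERPINE2, VCAN and HAS2 were over 0.5 FPKM in all 10 samples. The part of follicular cells in the level of STAR was not tested.

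In the lists of meiosis, cohesin and chromatin the share past the limits, 0%, was near the 2.29% of all genes. Of 35 genes of meiosis and the cell cycle 0 passed, with a median of -0.12. PTTG1, the securin, had 3656, 5592, 5446, 3898 and 3729 FPKM in HLO and 3714, 11073, 5719, 2185 and 6059 in LLO, and LLO 2 was far above the rest. Of 16 cohesin genes 0 passed and 2 had a log2 fold change above 0, with a median of -0.54, the lowest of the lists shown. ESCO2, which acetylates cohesin, had 126, 75.4, 79.4, 92.6 and 146 FPKM in HLO and 123, 262, 103, 61.4 and 364 in LLO, and LLO 2 and LLO 5 were highest. Of 22 genes of DNA methylation and histone marks 0 passed and 2 were above 0, with a median of -0.37. DNMT1, the maintenance DNA methyltransferase, had 44.8, 48.2, 60.1, 75.4 and 95.1 FPKM in HLO and 41, 432, 94.7, 85.9 and 225 in LLO. Its log2 fold change of -1.02 (unadjusted p = 0.123) was -0.58 without LLO 2. The medians of the cohesin and the chromatin lists were 0.13 and 0.09 without LLO 2, LLO 4 and LLO 5. The lists of translation initiation (45 tested), mRNA storage and decay (35), splicing (53) and chaperones (60) had medians of -0.22, -0.25, -0.23 and -0.23. Of their members SNRPF, a core protein of splicing snRNPs, was higher in HLO (log2 fold change 1.48, lost without HLO 2, HLO 3, HLO 4, LLO 1, LLO 4 or LLO 5, range 1.18 to 1.97). Without LLO 2, LLO 4 and LLO 5 SNRPF was 1.13 (unadjusted p = 0.169). A copy of DNAJA2 was higher in LLO (-1.02, lost without HLO 2, HLO 3, HLO 4, LLO 4 or LLO 5, range -1.30 to -0.61).

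Genes of carbon metabolism and the maternal store overlapped between the groups, as did all but 36 of the 8328 genes tested. In these lists and in those of apoptosis and stress the share past the limits, 0%, was near the 2.29% of all genes. No member passed the limits among 15 genes of glycolysis (median -0.03), 11 of the TCA cycle (-0.05), 13 of pyruvate and lactate (-0.11) and 16 of fatty acids (0.01). GAPDH of glycolysis had 271, 26.8, 31.8, 27.9 and 59.4 FPKM in HLO and 290.1, 5.71, 23.9, 256 and 35 in LLO. It was high in HLO 1, LLO 1 and LLO 4, a spread within each group that was far larger than the difference between them. FABP3, which carries fatty acids, had 265 to 1031 FPKM over HLO and 194 to 1011 over LLO. Of 13 maternal-effect genes and 9 oocyte transcription factors 0 passed, with medians of -0.01 and 0.02. NPM2, the chaperone of oocyte histones, had 868, 704, 832, 484 and 1468 FPKM in HLO and 949.7, 1095, 727, 1767 and 616 in LLO, and OOEP of the subcortical complex 89.5, 109, 106, 59.8 and 95.8 and 121, 204, 7.86, 209 and 125, where LLO 3 alone was low. Lists of apoptosis (9 tested) and of stress and early response (6) had medians of -0.24 and -0.33 and 0 calls, and DDIT3, a gene of the stress response, had 83.9 to 199 FPKM over HLO and 119 to 265 over LLO.

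Single LLO samples were under 1 FPKM for some genes that were over 10 FPKM in every HLO sample. Of 1519 genes over 10 FPKM in all 5 HLO samples, 66 were under 1 FPKM in at least 1 LLO sample. By sample there were 36 such genes in LLO 2, 19 in LLO 5, 17 in LLO 4, 9 in LLO 3 and 0 in LLO 1. The reverse was not seen at these limits: of 1142 genes over 10 FPKM in all 5 LLO samples, 0 were under 1 FPKM in any HLO sample. The SD was larger in LLO for 80.5% of genes, and a wider spread by itself gives more low values. The genes were also chosen by the same values, so these counts describe the samples and are no test. Most of the 66 genes, 53, were low in 1 sample alone, 11 in 2 samples and 2 in 3 samples. LLO 2 and LLO 5 shared 10 of them, and without LLO 2, LLO 4 and LLO 5 the number was 9. TTC9B had 26.7, 19.6, 15.1, 11.5 and 10.3 FPKM in HLO and 21.6, 0, 0.138, 10.3 and 0.463 in LLO, so LLO 2, LLO 3 and LLO 5 were low. COX19, which helps to assemble complex IV, had 20.6, 26.1, 26.6, 25.2 and 14.2 FPKM in HLO and 29.3, 0.892, 29.3, 5.05 and 0 in LLO, and here LLO 2 and LLO 5 were low. EXOSC4, a core subunit of the RNA exosome, had 77.2, 25.7, 17.3, 16.1 and 10.8 FPKM in HLO and 70.8, 0.503, 10.5, 43.5 and 0.831 in LLO, with the same 2 samples low. These 3 genes were chosen after their values were seen. With limits of 20 and 1 FPKM the numbers were 16 and 0 genes, and with 5 and 0.5 FPKM 82 and 1. In medium follicles the counts at 10 and 1 FPKM were 10 of 1599 genes for the low and 0 of 1390 for the high fertility group. In small follicles, with 4 HSO and 5 LSO samples, they were 12 of 1668 and 2 of 1508. LSO 1 was low in 11 of the 12.

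**Figure D5:**
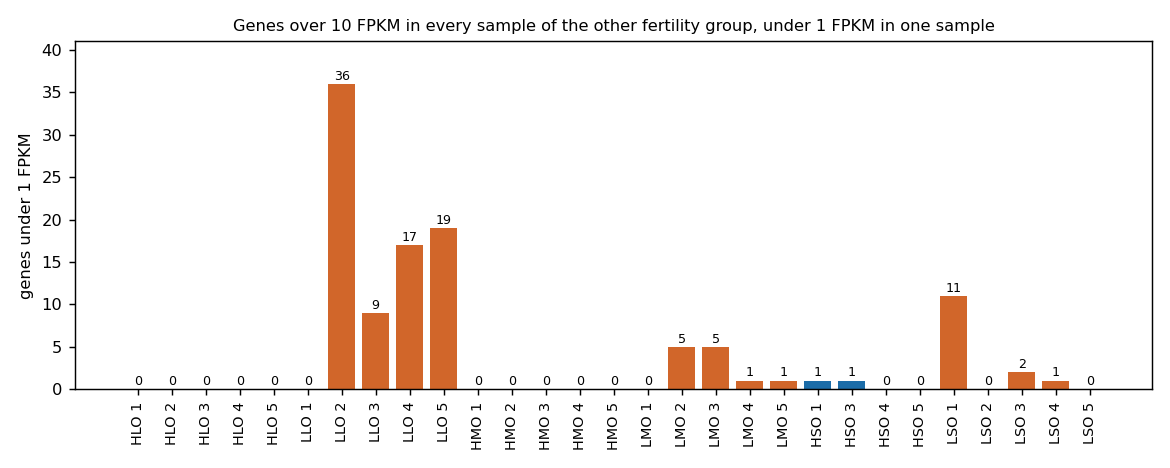
Bars show, for each of 29 oocyte samples, how many genes over 10 FPKM in every sample of the other fertility group of the same follicle size were under 1 FPKM in it, high fertility in blue and low fertility in orange. LLO 2 has 36, LLO 5 has 19 and LLO 4 has 17, and the HLO samples have 0.

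The most abundant genes with a symbol included FTL, DYNLL1, GSTM3, CKS1B and TMSB4X. FTL, the light chain of ferritin, had 18872, 7821, 14062, 5293 and 20038 FPKM in HLO and 19686, 17861, 8657, 12059 and 31223 in LLO. DYNLL1, another light chain of dynein, had 7216, 14309, 14150.5, 10871 and 5461 FPKM in HLO and 8123, 3459, 14011, 7575 and 2289.9 in LLO. GSTM3, a glutathione transferase, had 4109, 4626, 5927, 3522 and 4679.6 FPKM in HLO and 3932, 465, 4555, 2243 and 349.9 in LLO, so LLO 2 and LLO 5 were far below the other samples. It passed the limits with a log2 fold change of 1.63 (unadjusted p = 0.0361, lost without HLO 1, HLO 2, HLO 3, HLO 5, LLO 2 or LLO 5, range 1.11 to 2.04), which was 0.09 without LLO 2, LLO 4 and LLO 5. CKS1B, a partner of cyclin-dependent kinases, had 2156 to 6279 FPKM over HLO and 3361 to 6212 over LLO. TMSB4X was listed at 0 in HLO 1, HLO 5 and LLO 1 and had 0 to 9630.5 FPKM over HLO and 0 to 6432 over LLO. The 5 genes were chosen after their levels were seen, FTL, DYNLL1 and TMSB4X share their symbols with other copies, and apart from GSTM3 none passed the limits.

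The genes that passed the limits in large follicles were set beside the same comparison in medium and small follicles, which used other samples. Of the 148 genes higher in HLO, 71 had a log2 fold change above 0 in medium follicles (HMO against LMO, 5 samples each) and 108 in small follicles (HSO against LSO, 4 and 5 samples), with medians of -0.03 and 0.35. Over all 8328 genes the medians were -0.07 and 0.00, and 3559 and 4148 genes were above 0. Of the 148, 2 passed the same limits higher in HMO and 2 lower, and 6 passed higher in HSO and 0 lower. Over all 8328 genes, 160 passed higher in HMO and 39 lower, and 63 higher in HSO and 62 lower. Of the 43 genes higher in LLO, 15 were below 0 in medium and 37 in small follicles. Past the limits, 1 was lower in HMO and 3 were higher, and 2 were lower in HSO and 0 higher. The medians of the nuclear respiratory chain were 0.37 in medium and -0.07 in small follicles, those of the cytosolic ribosome 0.24 and -0.18, and those of the genes of mitochondrial DNA -1.92 and 0.63.

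Among the 13 genes without overlap 6 had the same sign in medium and 10 in small follicles, and 5 in both, against 50.5% and 56.0% of all genes in medium and small follicles. PLEKHA3 was the clearest of them. In medium follicles it had 1.31, 1.23, 2.84, 0.798 and 1.98 FPKM in HMO and 6.4, 13.4, 7.19, 15.9 and 10.3 in LMO, which was -2.12 on the log2 scale (adjusted p from limma 0.00627). All LMO samples were above all HMO samples. In small follicles it had 2.15, 2.76, 2.06 and 3.68 FPKM in the 4 HSO samples and 2.92, 2.19, 7.12, 2.66 and 11 in LSO (-0.57, unadjusted p = 0.113), and these groups overlapped. STAR went the other way in medium follicles, with 8.54, 15.6, 9.86, 13.3 and 14.2 FPKM in HMO and 22.5, 39, 19.8, 25.1 and 26 in LMO (-1.04, unadjusted p = 0.0112), so that all LMO samples were above all HMO samples. KLHL12 (-0.96, unadjusted p = 0.0129) and PLEKHG2 (-0.89, unadjusted p = 0.0203) were also lower in HMO than in LMO. DYNLT1 differed in sign among the sizes, with log2 fold changes of -1.27 in large, 1.77 in medium and -1.73 in small follicles. LOC106503495, ENSCHIG00000019189 and LOC102189516 had -0.38, -0.15 and 0.19 in medium and 0.61, -1.09 and 0.59 in small follicles. LOC106503495 was listed at 0 in HMO 3, HMO 4 and HSO 1, and ENSCHIG00000019189 in HMO 3, HMO 5, HSO 1 and HSO 4. Both genes were also listed at 0 in some LMO and LSO samples.

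Whether the difference between the fertility groups was another in large than in the other follicles was tested with 1 contrast over all 29 samples and 9692 genes. An unadjusted p under 0.05 was found for 676 genes (6.97%), and 0 genes (0%) passed after adjustment, in this fit and in every alternative that was run. For KLHL12, PLEKHG2 and STAR the contrast was 1.44, 1.54 and 1.22 on the log2 scale, with unadjusted p of 0.00321, 0.0019 and 0.0158. These 3 were named for their lack of overlap in large follicles and for their values in medium follicles. The contrast uses both, so these p-values describe the genes and are no test.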

How the data were processed

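Messenger RNA of goat oocytes was enriched with oligo(dT) beads and sequenced on an Illumina instrument, per the methods of the study, while the labels name total RNA. The authors kept unique matches with fewer than 5 mismatches, removed duplicates and deposited FPKM values, computed on Ensembl gene models by Cufflinks 2.2.1. The aligner and the genome build are not given in the sources used here, so no coordinates or sequences are printed. FPKM hold no read counts, so depth and counting error are unknown, and an exact 0 is given as listed at 0. 1 sample column that matched no sample was left out.

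Genes with more than 0.5 FPKM in at least 4 samples were tested on log2(FPKM + 1) with limma 3.58.1 in R 4.3.3 (moderated test with trend, Benjamini-Hochberg adjustment). Fold changes on this scale understate the change of low genes. A gene passed the limits when its p before adjustment was under 0.05 and its log2 difference exceeded 1 in size. The number of genes detected was compared by an exact permutation test in scipy 1.17.1 (Python 3.11.15), for which the smallest p of 5 against 5 samples is 0.00794. The fits were tested on simulated data with known changes. The simulation drew independent noise with the same SD in both groups, while the SD here was larger in LLO for 80.5% of genes. It therefore cannot show how the fits behave with such a spread. Alternatives were another pseudocount, filters, scalings, weights, tests, a replicate block, a fit over all samples and leaving out each sample.

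The text names up to 14 genes of largest fold change in each direction among those past the limits with a symbol of their own, all genes whose groups did not overlap at a log2 difference over 1, up to 4 members of each gene list and the marker genes. Genes outside this rule, among them further examples within a list, were chosen after their values were seen. The samples compared, the gene lists and the limits were chosen with earlier results of these data known. 1 gene that the rule names is not reported here.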

Additional observations from a re-analysis of the deposited data

Results flagged for a closer look

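In 202 groups of 5 values, 1 for each gene named and fertility group, 13 held a sample far from the other 4 by Dixon's test (limit 0.71), 5 in HLO and 8 in LLO. Chance flags about 1 in 20 such groups. In HLO the highest sample stood apart for OR5J2 (1.53 FPKM in HLO 3), PLEKHG2 (10.1 in HLO 4), UBE2W (34.4 in HLO 1), PKM (18.3 in HLO 4) and ID3 (49.1 in HLO 4). In LLO the highest sample stood apart for PLA2G10 (0.384 in LLO 2), LOC106503495 (0.497 in LLO 1), ENSCHIG00000019189 (3.70 in LLO 3) and C12orf45 (72.0 in LLO 4). The lowest LLO sample stood apart for ND2 (0.967 in LLO 4), COX3 (2.95 in LLO 4), OOEP (7.86 in LLO 3) and TMSB4X (listed at 0 in LLO 1). In PLA2G10, LOC106503495 and ENSCHIG00000019189 the other 4 LLO samples were listed at 0.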

How the results depend on the processing

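The counts of genes past the limits, 148 higher in HLO and 43 in LLO, depended on the processing. They were 347 and 82 in 1 fit over all samples, 307 and 565 with array weights, 50 and 21 with an exact Wilcoxon test, 231 and 36 with median-of-ratios factors and 250 and 92 with a pseudocount of 0.1. A filter of 1 FPKM, no filter and quantile normalization gave 142, 124 and 211 higher in HLO. With 1 sample left out they ranged from 73 to 353 and from 11 to 256, and without LLO 2, LLO 4 and LLO 5, chosen after seeing the data, they were 42 and 14. Genes with an adjusted p under 0.05 numbered 2 with array weights and from 0 to 1 with a sample left out (1 without LLO 3). The difference in detected genes was -12.8 at a limit of 1 FPKM and ranged from -143 to 368 with a sample left out, below 0 without HLO 1 (-85.3), HLO 5 (-11.6), LLO 2 and LLO 3 (-103). The sign turned without LLO 2, LLO 4 and LLO 5 for COQ5 (-0.29), TIMD4 (-0.19), ME3 (-0.13), MT3 (-0.13), DMAC1 (-0.21), CIB3 (-0.17) and CECR2 (0.00814). Of 53 named genes past the limits 17 stayed past them with any 1 sample left out. The cause of these shifts was not tested.

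The replicate numbers were taken as a block in 1 fit, which gave 280 and 105 genes and 1 gene with an adjusted p under 0.05, and 17, 13 and 7 calls in the lists of the nuclear respiratory chain, the cytosolic and the mitochondrial ribosome. The deviations of samples with the same number correlated at 0.486, 0.197, 0.497, -0.07 and 0.539 for numbers 1 to 5, so number 4 gave no pairing, and 6 of 10 samples correlated best with their own number. The 6 were the samples of numbers 1, 3 and 5. What samples with the same number share is not recorded, and the cause of these correlations was not tested. Read depth, which would limit low genes, is unknown.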

Other observations

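Terms that the table attaches to the genes were counted, with the words chosen after the values were seen and with no test. Of the genes higher in HLO 135 had terms, and 29 of these (21.5%) had a term with the word mitochondri, against 13.3% of 7438 tested genes with terms. Of the 36 with terms that were higher in LLO 2 (5.56%) had it. Calcium ion binding was attached to 10 genes higher in HLO (7.41%) and to 2.16% of all, and the word extracellular to 24 (17.8%) and 10.5%. The nucleus was named for 13 of the 36 genes higher in LLO (36.1%), 31 of the 135 higher in HLO (23.0%) and 32.1% of all.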
